A study of Mus musculus with 20 samples.

Results

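Mouse bone marrow cells lacking Tet2 were compared with cells carrying the R140Q mutation of Idh2. The sorted fraction, called LSK, lacks lineage markers and carries cKit and Sca1. It is a fraction that holds blood stem cells and multipotent progenitors. The comparison takes the 4 libraries of Tet2-/- mice (Tet2KO) and the 4 of Idh2LSL-R140Q/+;Vav-Cre mice (Idh2R140Q), 8 of the 20 libraries of the series, chosen by genotype alone. It covers 14419 genes whose TPM averaged 1 or more over these 8 libraries (TPM, transcripts per 1000000, is a level corrected for gene length). Per the labels all mice were C57Bl/6J, 3 to 4 months old, and each library was made from the total RNA of a pool of 2 mice. Vav-Cre drives recombination in blood-forming and some endothelial cells, and the R140Q allele sits at the native Idh2 locus behind a stop cassette. The Tet2KO label names no Cre, so Cre and genotype cannot be told apart. The reference group is +/+;Vav-Cre (WT, 4 libraries). The other 8 libraries, of Idh1LSL-R132H/+;Vav-Cre and Idh2LSL-R172K/+;Vav-Cre mice, enter only the shared estimate of the spread unless named.

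Both lesions touch the same chemistry, which is the question behind the comparison. TET2 is a 2-oxoglutarate-dependent enzyme that oxidises 5-methylcytosine in DNA and so opens the way to its removal. IDH2 is a mitochondrial enzyme that makes 2-oxoglutarate, and its R140Q form instead makes 2-hydroxyglutarate, a competitor of 2-oxoglutarate that can inhibit TET2 and many related enzymes. Mutations of both genes are found in human myeloid leukaemia, where they seldom occur together.

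Tet2KO and Idh2R140Q differed at 1367 of 14419 genes, or 9.48%, with 593 higher in Tet2KO (4.11%) and 774 lower (5.37%). The test was limma on log2(TPM + 1) with Benjamini-Hochberg adjusted p under 0.05. Of these genes 183 differed by at least 2-fold, 47 higher and 136 lower. In 2306 genes (16.0%) the libraries of both groups did not overlap, among them 512 of the genes called higher and 685 of those called lower. In the same fit Tet2KO differed from WT at 1085 genes (7.52%), while Idh2R140Q differed from WT at 0 genes (0%, with 437 at an unadjusted p under 0.05). Under the other settings that last count was 0 to 3. The genes called higher in Tet2KO than in Idh2R140Q had a median log2 difference from WT of 0.50 in Tet2KO and -0.04 in Idh2R140Q. The genes called lower had medians of -0.60 and 0.17. These comparisons share libraries and are given side by side only.

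The count moved with several libraries. It was 178 without Tet2KO replicate 4, 181 without Idh2R140Q replicate 3, 430 without Idh2R140Q replicate 4 and 436 without Idh2R140Q replicate 2, and it rose to 2255 without Tet2KO replicate 1. Tet2KO replicate 2 stood apart in its RNA. It gave 20.0% of its TPM to the ribosomal-RNA-like Gm23935, against 9.57 to 10.9% in the other Tet2KO libraries and 7.55 to 12.4% in Idh2R140Q. Its genes of over 8000 bases of exon lay 1.03 lower on the log2 scale, relative to genes of up to 1000 bases, than the mean of the 20 libraries. The same measure was -0.37 to -0.14 in the other Tet2KO libraries and -0.07 to 0.32 in Idh2R140Q. Without this library 778 genes (5.40%) were called, 399 higher (2.77%) and 379 lower (2.63%). In the female pools alone, 2 of each group, 2256 were called, 1650 higher (11.4%) and 606 lower (4.20%). These pools are Tet2KO replicates 3 and 4 and Idh2R140Q replicates 1 and 3. That fit thus also leaves out Tet2KO replicate 2 and Idh2R140Q replicate 4, and sex cannot be told apart from the libraries left out. With all number 4 pools and Tet2KO replicate 2 removed, 2141 were higher (14.8%) and 206 lower (1.43%). The counts of list members below are to be read against these shares of all genes. Sex was read from Xist and Y-linked RNA, with 2 male and 2 female pools in each group. A fit of these 8 libraries with no other group called 4 genes, which were Sva and Gm37068 (lower in Tet2KO) and Ifitm1 and Gm14044 (higher). The calls thus rest on a spread estimated over all 5 groups. A set of 96 genes (0.666%), 58 higher and 38 lower, was called in the same direction in each of 27 other settings in which the gene was tested, the 2-group fit left aside. This set was defined after the data were seen, and its members are called steady calls below. Rebuilt depth was 35.2 to 38.0 M reads in Tet2KO and 39.1 to 45.0 M in Idh2R140Q. The median difference of all genes was -0.04, and it was 0.06 without Tet2KO replicate 2 and 0.11 in the female pools.

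**Figure D1:**
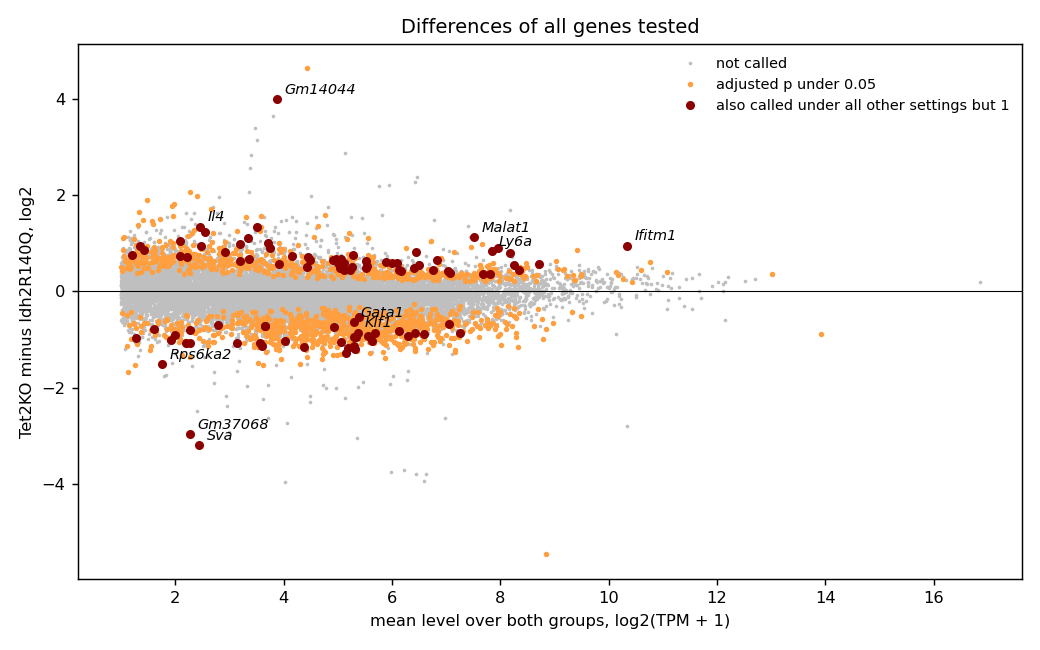
Log2 difference of Tet2KO minus Idh2R140Q (vertical axis) against the mean level of each of the 14419 genes (horizontal axis, log2(TPM + 1)). Orange points are the 1367 called genes and dark red points the 96 steady calls, with Sva and Gm37068 at the bottom and Gm14044 at the top of them.

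The targeted genes were measured first. Tet2 was at 11.2, 5.74, 12.2 and 10.6 TPM in the 4 Tet2KO libraries and at 8.14, 9.91, 8.32 and 13.4 TPM in Idh2R140Q. The groups overlapped, and the difference was -0.02 (SE 0.20, limma, adjusted p = 0.946). In the female pools alone it was 0.42 (adjusted p = 0.036). No label says which exons were removed, and a gene-level TPM cannot show the loss of an exon, so this value does not check the genotype. Idh2 was at 565, 512, 610 and 597 TPM in Tet2KO and 496, 474, 554 and 621 TPM in Idh2R140Q, a difference of 0.10 (SE 0.11, limma, adjusted p = 0.575). A point mutation leaves the RNA level uninformative about the allele. Idh1, the cytosolic form of the enzyme, differed by -0.26 (SE 0.16, limma, adjusted p = 0.30).

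Erythroid priming genes were lower in Tet2KO. This list holds early red cell genes that multipotent cells already transcribe at a low level, and the transcription factors GATA1 and KLF1 are needed for red cell formation. Of 28 members tested, 11 were called lower and 0 higher, against 5.37% and 4.11% of all genes. The median difference of the 28 was -0.38, beside -0.04 over all genes. It was -0.32 without Tet2KO replicate 2 and -0.30 in the female pools, and it lay between -0.51 and -0.28 under all settings. Without that library 8 members were called lower and 0 higher, against 2.63% and 2.77% of all genes. In the female pools 5 were lower and 3 higher, against 4.20% and 11.4% of all genes, so the higher count there was near the background. Against WT the list median was -0.40 in Tet2KO and -0.03 in Idh2R140Q.

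Klf1, an activator of globin and red cell membrane genes, lies at chromosome 8, 84901928 to 84905291 (mm10, plus strand). It was at 30.5, 28.7, 24.9 and 28.9 TPM in Tet2KO and at 45.6, 53.9, 56.5 and 52.8 TPM in Idh2R140Q, while WT averaged 55.7 ± 6.28 TPM (SD, n = 4). All Tet2KO libraries lay below all Idh2R140Q libraries, which lay at the WT level. The difference was -0.86 (SE 0.12, limma, adjusted p = 0.0014), and it was -0.87 without Tet2KO replicate 2. Gata1, on the X chromosome, was at 33.2, 24.6, 28.4 and 31.7 TPM in Tet2KO and 41.8, 52.8, 50.8 and 41.5 TPM in Idh2R140Q. It fell by 0.65 (SE 0.12, limma, adjusted p = 0.012), again with no overlap. Sphk1, a kinase that makes the lipid signal sphingosine-1-phosphate, was at 4.46, 3.52, 4.71 and 5.99 TPM in Tet2KO against 9.50, 9.60, 12.2 and 12.0 TPM. Its difference of -1.07 (SE 0.14, limma, adjusted p = 0.0014) was the largest among the called members. Ermap, an erythroid membrane protein, was at 10.4, 5.89, 10.3 and 12.5 TPM against 17.7, 17.2, 22.4 and 24.8 TPM, a difference of -1.03. These 4 were steady calls.

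The promoters of Klf1 and Ermap are shown because both genes fell and both windows hold the letters CCACCC (or GGGTGG on the other strand), the core bound by KLF-type factors. They run from 250 bases before to 50 after the RefSeq start (GRCm38.p6), 5′ to 3′ on the gene's strand, with the matches in capitals. Klf1 spans chr8:84901732-84902031, plus strand, and Ermap chr4:119189946-119190245, minus strand.
Klf1: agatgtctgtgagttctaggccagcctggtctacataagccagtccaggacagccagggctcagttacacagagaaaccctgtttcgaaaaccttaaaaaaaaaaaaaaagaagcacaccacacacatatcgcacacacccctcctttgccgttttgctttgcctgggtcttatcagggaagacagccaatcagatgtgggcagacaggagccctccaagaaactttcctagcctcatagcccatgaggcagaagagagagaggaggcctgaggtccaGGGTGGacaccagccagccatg
Ermap: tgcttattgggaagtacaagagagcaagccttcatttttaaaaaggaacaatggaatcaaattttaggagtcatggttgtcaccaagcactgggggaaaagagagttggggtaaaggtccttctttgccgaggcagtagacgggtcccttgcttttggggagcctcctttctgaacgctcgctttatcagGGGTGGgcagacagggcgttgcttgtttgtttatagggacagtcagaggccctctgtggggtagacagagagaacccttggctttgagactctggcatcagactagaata
Among 9641 genes tested with such a window, 36.2% held these letters. They were in 6 of the 9 called erythroid members with a window and in 5 of 13 that were not called. The letters AGATAA, 1 form of the core that GATA factors bind, were searched on both strands. They were in 6.62% of all windows, in 1 of the 9 called members and in 4 of the 13 others. Other forms of this core were not counted. Both windows shown hold ttatca, which reads TGATAA on the other strand, so these counts do not show which windows lack a GATA core. A match is a description of the letters and not a binding site.

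Other called members were parts of the red cell surface and skeleton. Aqp1, a water channel, was at 44.6 to 57.4 TPM in Tet2KO and 73.7 to 90.7 TPM in Idh2R140Q. Rhd, a blood group protein, was at 13.1 to 16.2 against 22.7 to 28.8 TPM. Sptb, a spectrin of the membrane skeleton, was at 0.234 to 1.20 against 1.47 to 3.08 TPM. None of these 3 genes overlapped between the groups. Add2, Atp1b2 and Tspo2 differed by -0.84, -0.76 and -0.49 and lost their call without Tet2KO replicate 2 (limma, adjusted p = 0.054, 0.068 and 0.066).

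Genes of later red cells did not all move this way. Among 10 red cell markers tested 2 were called lower and 1 was called higher, while 7 lay above 0. Their median was 0.26, and it was 0.34 both without Tet2KO replicate 2 and in the female pools. Rhag, the partner of the Rh proteins, was lower (-0.62), but not called without Tet2KO replicate 2 (limma, adjusted p = 0.059). Hbb-bt, an adult beta globin, was higher at 48.2, 78.6, 78.8 and 47.0 TPM against 32.0, 31.4, 30.3 and 19.7 TPM. It rose by 1.11 (SE 0.25, limma, adjusted p = 0.019), though reads may be shared with the near-identical Hbb-bs. The summed level of the red cell markers was 131.6 to 169.6 TPM in Tet2KO and 103 to 116 TPM in Idh2R140Q. Of 30 genes of haem synthesis and iron, 5 were lower and 1 was higher, with a median of -0.09. The lower ones included Cpox, an enzyme of haem synthesis, at 12.2 to 19.8 against 28.7 to 48.7 TPM, and Abcb10, a mitochondrial transporter of the haem pathway, a steady call of -0.95. Flvcr1, a haem exporter, fell by 0.82. The higher one was Ftl1, the ferritin light chain, by 0.26. Slc38a5, an amino acid transporter outside the lists and picked for its values, fell by 0.72 and was a steady call. Fewer cells of a type and less RNA per cell cannot be told apart in these bulk libraries.

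**Figure D2:**
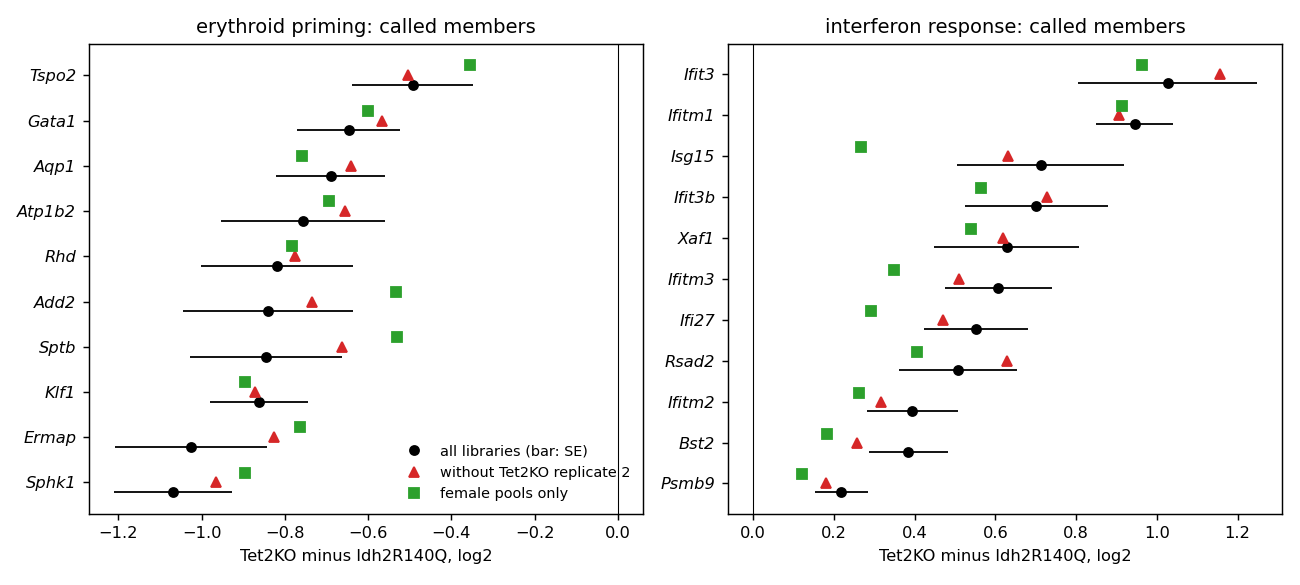
Log2 difference of Tet2KO minus Idh2R140Q (horizontal axes) for 10 of the 11 called erythroid priming genes and the 11 called interferon genes, with all libraries (black, bar SE), without Tet2KO replicate 2 (red) and in the female pools (green). All erythroid points shown lie below 0 and all interferon points above 0, while Isg15 stands at 0.71 with all libraries and at 0.27 in the female pools. The members shown were chosen as called, which fixed the side of the black points. The red and green points reuse these libraries. In the female pools 3 of the 28 erythroid members tested were called higher, and they are not shown.

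Interferon response genes were higher in Tet2KO. Interferons switch on a set of antiviral and antigen-presenting genes through STAT and IRF factors, and blood stem cells keep some of them on without infection. Of 47 members tested, 11 were called higher and 0 lower, against 4.11% and 5.37% of all genes, with a median of 0.28. Without Tet2KO replicate 2 the count was also 11 higher and 0 lower, against 2.77% higher among all genes, with a median of 0.37, but Ifitm2, Xaf1, Isg15 and Psmb9 were no longer called and other members took their place. In the female pools 11 were higher and 0 lower, against 11.4% higher among all genes, with a median of 0.29, and with all libraries 36 of the 47 members lay above 0. Against WT the median was 0.36 in Tet2KO and 0.09 in Idh2R140Q.

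Ifitm1, an interferon-induced membrane protein that blocks virus entry, lies at chromosome 7, 140967221 to 140969825 (mm10, plus strand). It was at 1576, 1855, 1719 and 1696 TPM in Tet2KO and at 878, 844, 935 and 893 TPM in Idh2R140Q, with WT at 963 ± 65.1 TPM (SD, n = 4). The groups were far apart, and Idh2R140Q lay near WT. The difference was 0.95 (SE 0.10, limma, adjusted p = 4.9e-05), and it passed the test in the 2-group fit as well (adjusted p = 0.0026). It was the one steady call of the list. Its neighbours Ifitm3 and Ifitm2 were at 1815 to 2520 against 1073 to 1663 TPM and at 2169 to 2877 against 1575 to 2088 TPM. Ifit3, an RNA-binding antiviral protein, was at 9.48, 5.38, 5.79 and 9.74 TPM in Tet2KO and 4.48, 2.04, 2.51 and 3.83 TPM in Idh2R140Q. It rose by 1.03 (SE 0.22, limma, adjusted p = 0.016), and its near-identical copy Ifit3b by 0.70, so reads could be split between both. Isg15, a ubiquitin-like modifier, was at 62.4, 70.1, 48.6 and 57.7 against 49.7, 28.5, 38.5 and 29.8 TPM. Here the groups overlapped, and the call (0.71, limma, adjusted p = 0.041) was lost without Tet2KO replicate 2 (adjusted p = 0.094). Bst2 (tetherin), Rsad2 (viperin), Ifi27, Xaf1 and the immunoproteasome subunit Psmb9 made up the rest, with differences of 0.38, 0.51, 0.55, 0.63 and 0.22.

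The promoters of Isg15, Ifit3 and Ifitm3 are shown because they hold GAAA, any 2 bases and GAAA again, on either strand (TTTC, any 2 bases and TTTC on the other), the core of the element bound by IRF and STAT complexes. The windows are as above, with matches in capitals, overlapping in Isg15. Isg15 spans chr4:156200769-156201068, minus strand, Ifit3 chr19:34583279-34583578, plus strand, and Ifitm3 chr7:141010695-141010994, minus strand.
Isg15: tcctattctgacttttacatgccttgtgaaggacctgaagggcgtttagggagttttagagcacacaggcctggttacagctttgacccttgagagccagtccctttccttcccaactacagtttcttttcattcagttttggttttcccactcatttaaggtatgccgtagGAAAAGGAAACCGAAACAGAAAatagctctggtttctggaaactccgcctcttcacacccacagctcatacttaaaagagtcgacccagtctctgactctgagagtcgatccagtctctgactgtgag
Ifit3: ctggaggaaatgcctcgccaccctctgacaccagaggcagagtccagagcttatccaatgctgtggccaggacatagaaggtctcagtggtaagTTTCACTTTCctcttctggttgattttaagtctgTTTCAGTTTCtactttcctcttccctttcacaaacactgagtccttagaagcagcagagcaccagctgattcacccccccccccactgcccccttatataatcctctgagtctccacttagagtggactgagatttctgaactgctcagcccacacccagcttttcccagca
Ifitm3: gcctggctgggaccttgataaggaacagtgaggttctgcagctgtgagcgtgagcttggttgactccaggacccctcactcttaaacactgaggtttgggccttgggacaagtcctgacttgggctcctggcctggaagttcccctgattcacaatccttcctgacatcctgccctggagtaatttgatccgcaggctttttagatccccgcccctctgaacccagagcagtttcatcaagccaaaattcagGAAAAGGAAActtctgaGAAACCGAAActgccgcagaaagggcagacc
The letters were in 3.26% of the windows of all genes tested. They were in 7 of 10 called members of the list with a window, and in 15 of 26 members that were not called. The window of Ifitm1, the steady call of the list, held 0 matches. Among all steady calls higher in Tet2KO the letters were in 1 of 42 windows, or 2.38%.

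Antigen presentation moved with smaller steps. H2-DMb1, which loads peptide onto MHC class II, was at 125, 114, 129 and 126 TPM in Tet2KO and 83.6, 87.5, 94.0 and 99.7 TPM in Idh2R140Q. It rose by 0.44 (SE 0.08, limma, adjusted p = 0.011) with no overlap and was a steady call. Together with Bst2 it made 2 of 18 class II and dendritic genes called higher, and 0 were lower (median 0.25). Of these genes 1 was higher in the female pools (median 0.26). With the number 4 pools and Tet2KO replicate 2 removed it was also 1 (median 0.35). The shares higher among all genes were 11.4% and 14.8% there. Bst2 was not called in the female pools (limma, adjusted p = 0.165). Of 24 class I genes, B2m, Psme1 and Psmb9 were higher and the chaperone Canx lower (median 0.14). Without Tet2KO replicate 2 Canx was the 1 call left. In the female pools 6 were higher and 0 lower, and 8 and 0 with the number 4 pools and Tet2KO replicate 2 removed, against 11.4% and 14.8% higher among all genes. Il18, an inflammatory cytokine, was at 64.8 to 74.8 against 40.5 to 52.8 TPM, a steady call of 0.60, while the NF-kB and inflammation list gave 2 higher and 1 lower of 29.

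**Figure D3:**
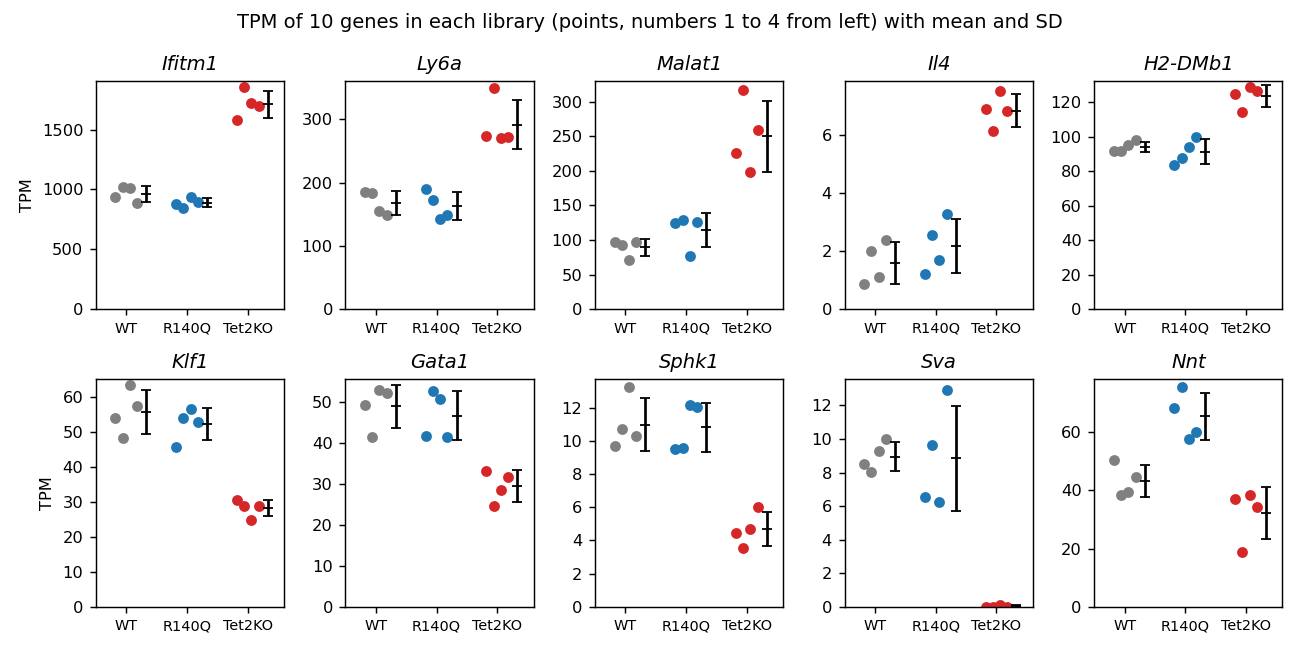
TPM of 10 genes in each library of WT, Idh2R140Q and Tet2KO, with every axis starting at 0. Points are libraries and bars mean and SD (n = 4). In all 10 genes the Tet2KO points are separate from the Idh2R140Q points, and for Nnt the Idh2R140Q points, at 57.7 to 75.5 TPM, also lie above WT. The genes were picked from the steady calls, so their separation is not a further result.

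Surface and stem cell genes were mixed. Ly6a encodes Sca1, the protein by which the cells were sorted, and lies at chromosome 15, 74994877 to 74998031 (mm10, minus strand). It was at 274, 350, 271 and 272 TPM in Tet2KO and 190, 171.9, 143 and 149 TPM in Idh2R140Q. It rose by 0.83 (SE 0.11, limma, adjusted p = 0.0014), and by 0.74 without Tet2KO replicate 2. Kit, the other positive sort marker, was at 432, 97.9, 456 and 334 against 370, 480, 383 and 487 TPM. Its difference of -0.59 did not pass (limma, adjusted p = 0.22), and the low value was Tet2KO replicate 2. Of the 8 sort genes, Ly6a alone was called. Cd52, a small surface glycoprotein of blood cells picked for its values, was at 307 to 569 against 187 to 218 TPM and was a steady call.

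Of 38 stem cell genes, Hoxb5, Hmga2 and Hoxb4 were higher and Vwf, a platelet and stem cell adhesion protein, was lower. The median was 0.04, and it was 0.24 without Tet2KO replicate 2 and 0.43 in the female pools. In those pools 12 members were called higher and 0 lower, against 11.4% and 4.20% of all genes, whose median was 0.11. Hoxb5, a homeobox factor that marks long-term stem cells, was at 1.83, 2.49, 2.59 and 2.11 TPM in Tet2KO and 1.03, 1.46, 0.860 and 0.822 TPM in Idh2R140Q. It rose by 0.68 (SE 0.16, limma, adjusted p = 0.022). Hoxb5os, transcribed on the opposite strand of the same locus, was at 5.75, 11.3, 6.06 and 5.67 against 3.45, 2.01, 2.73 and 1.58 TPM, a steady call of 1.23. The strand setting of the counting is not given in the sources used here, so reads of the overlapping pair cannot be told apart. Hmga2, a chromatin protein of fetal self-renewal, was at 10.4, 17.9, 10.0 and 9.17 against 8.52, 4.24, 5.00 and 6.83 TPM, and WT was at 3.27 ± 0.393 TPM (SD, n = 4). Its difference from Idh2R140Q was 0.84 (limma, adjusted p = 0.026), and 0.057 was the adjusted p without Tet2KO replicate 2. Procr, a stem cell surface receptor, differed by 0.32, and the stem cell factor Hlf by -0.39. Neither passed (limma, adjusted p = 0.54 and 0.24).

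Other lineage programmes gave few calls. Of 26 megakaryocyte genes, 4 were lower and 0 higher, against 5.37% lower among all genes. Without Tet2KO replicate 2 it was 2 lower and 1 higher, and 0 lower and 1 higher with the number 4 pools removed as well. Gp5, a subunit of the platelet receptor for von Willebrand factor, was at 7.62, 3.04, 4.60 and 5.03 TPM in Tet2KO and 10.7, 20.5, 14.0 and 18.3 TPM in Idh2R140Q. It fell by 1.49 (SE 0.32, limma, adjusted p = 0.016). Gp1bb, of the same receptor, fell by 1.23, while Itga2b, the platelet integrin, differed by -0.28 (limma, adjusted p = 0.47). The list median was -0.25 with all libraries and -0.02 without Tet2KO replicate 2. Lymphoid priming gave 3 lower of 27 (Cnn3, Notch1 and Ets1), and granulocyte-monocyte priming 2 lower of 36 (Cd93 and Hk3). Mpo, the myeloid granule enzyme, was at 2411, 2184, 2598 and 2946 against 3071, 2619, 5392 and 2599 TPM and differed by -0.37 (limma, adjusted p = 0.22). Flt3 and Dntt, genes of lymphoid-primed progenitors, differed by -0.03 and -0.23 (limma, adjusted p = 0.93 and 0.39).

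Markers of other cells were measured beside these. Il4, a cytokine that basophils make, was at 6.89, 6.12, 7.52 and 6.83 TPM in Tet2KO and 1.20, 2.56, 1.68 and 3.28 TPM in Idh2R140Q. It rose by 1.34 (SE 0.22, limma, adjusted p = 0.0068) and was a steady call. Of 9 basophil and mast cell markers tested, Il4, Prss34 and Mcpt8 were higher and Hdc lower. Their sum over 13 genes was 505 to 778 TPM in Tet2KO and 468 to 622 TPM in Idh2R140Q, and none was at 0 in all 8 libraries. Of 15 macrophage markers, the complement genes C1qa, C1qb and C1qc were higher. The sum over all 15 markers was 993 to 1072 TPM in Tet2KO and 783 to 1024 TPM in Idh2R140Q. C1qb was at 40.6, 62.8, 44.9 and 49.99 TPM in Tet2KO and 36.9, 14.5, 18.8 and 18.1 TPM in Idh2R140Q, where replicate 1 was the high one. Fcna, a macrophage lectin, rose by 1.36. The call of C1qa and C1qc was lost without Tet2KO replicate 2 (limma, adjusted p = 0.058 and 0.0915), and in the female pools C1qb had an adjusted p of 0.13. Neutrophil, B, plasma, T and NK, and eosinophil markers gave 0 calls of 12, 7, 10, 10 and 9 by limma. The neutrophil sum was 74.0 to 165 TPM in Tet2KO and 88.5 to 448 TPM in Idh2R140Q, and the plasma cell sum 2347 to 6766 against 3961 to 14220 TPM. The part of these cells in the results was not tested.

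Genes of the chemistry that links both lesions gave few calls, to be read against 4.11% higher and 5.37% lower among all genes. Of 23 TET, DNMT and base excision genes, Mbd2, which binds methylated DNA, was higher (0.58) and 0 were lower. Of 34 genes of IDH, the TCA cycle and 2-oxoglutarate metabolism, Gpt2 and Ogdh were lower (-0.85 and -0.69) and 0 were higher. Ogdh, which consumes 2-oxoglutarate, was at 223, 82.1, 223 and 181 TPM in Tet2KO and 234, 265, 291 and 282 TPM in Idh2R140Q, so that replicate 2 was the lowest. Among 39 other dioxygenases that use 2-oxoglutarate, the histone demethylase Kdm6b was higher (0.53). Alkbh5, which demethylates RNA, was lower (-0.92), as were Riox1, Plod3 and Kdm4b. That list had a median of -0.33 with all libraries and -0.08 without Tet2KO replicate 2, where Kdm6b, Plod3 and Kdm4b were not called, nor was Mbd2. The direction of the dioxygenase calls moved with the setting. Median-of-ratios scaling gave 2 higher and 15 lower, against 1090 and 1721 of all 14419 genes. The female pools gave 4 higher and 2 lower, against 11.4% and 4.20%. Without the number 4 pools and Tet2KO replicate 2 it was 6 and 0, against 14.8% and 1.43%. The HIF and glycolysis list gave 0 higher and 3 lower of 35.

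Proliferation genes leaned lower with all libraries. Of 35 S phase genes 4 were lower and 0 higher, and of 32 mitosis genes 3 were lower and 0 higher, against 5.37% lower among all genes. Without Tet2KO replicate 2 these counts were 0 and 1 lower. The medians of both lists were -0.26 and -0.27 with all libraries and -0.11 and -0.10 without that library. In the female pools they were -0.08 and -0.06. S phase in the female pools gave 2 lower and 2 higher and mitosis 2 lower and 1 higher. With the number 4 pools and Tet2KO replicate 2 removed it was 0 lower and 2 higher, and 1 lower and 2 higher. Mki67, a proliferation marker, was at 69.0, 44.5, 69.7 and 59.9 TPM in Tet2KO and 76.9, 83.9, 83.9 and 102 TPM in Idh2R140Q. It fell by 0.52 (SE 0.14, limma, adjusted p = 0.036), and without Tet2KO replicate 2 the adjusted p was 0.083. Ccna2, a cyclin of S phase and mitosis, was at 74.4 to 122 against 154 to 188 TPM and kept its call there (-0.51, adjusted p = 0.021). Of 30 DNA damage genes Atm and Wrn were lower, and both lost the call without that library (limma, adjusted p = 0.066 and 0.0505). That list's median was -0.33, then -0.11 without Tet2KO replicate 2 and -0.01 in the female pools. Ribosomal protein genes lay above 0 in 78 of 79 cases, with 6 called higher, against 4.11% of all genes, and a median of 0.29. The median was 0.17 without Tet2KO replicate 2 and 0.09 in the female pools, beside 0.06 and 0.11 over all genes. Nuclear genes of oxidative phosphorylation gave 6 higher and 0 lower of 75, with medians of 0.22, 0.14 and 0.05. In the female pools 1 gene of each of these 2 lists was called higher, against 11.4% of all genes. With the length trend removed 0 genes of either list were called, with medians of 0.21 and 0.10.

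**Figure D4:**
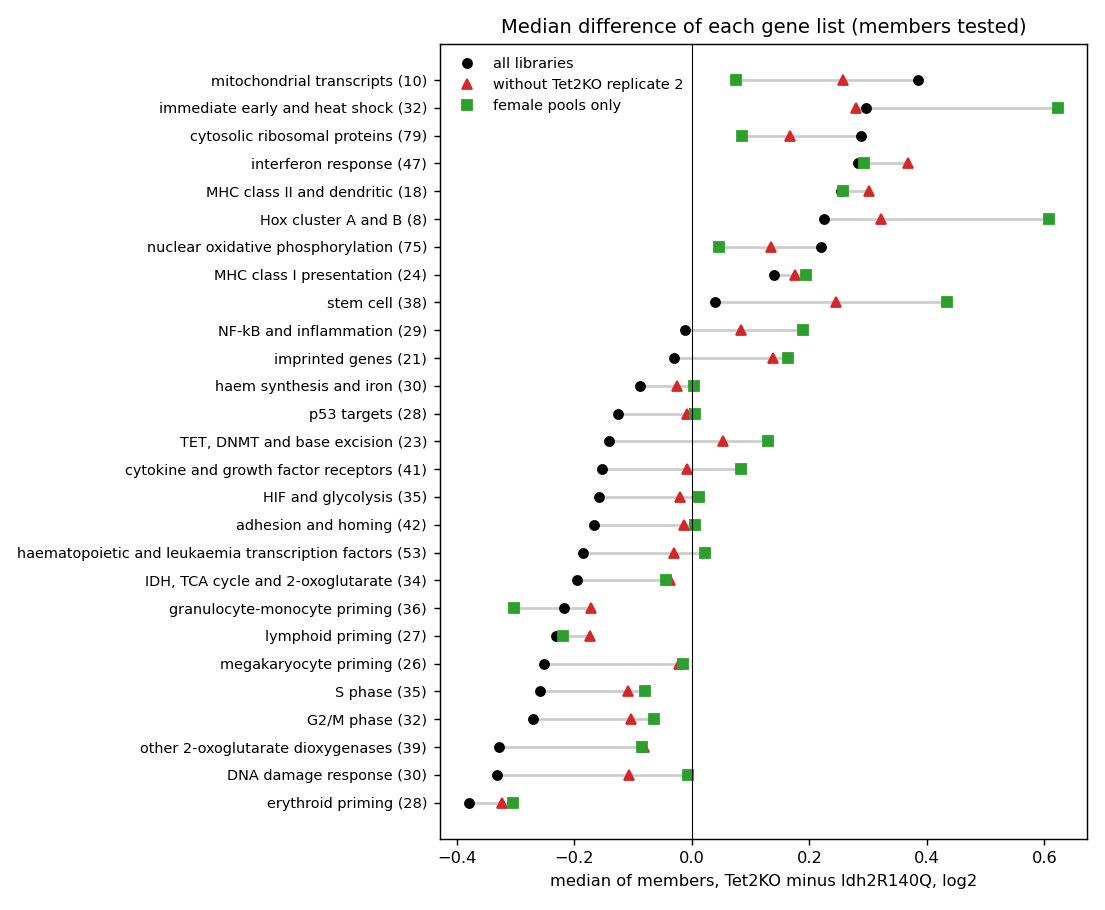
Median log2 difference of Tet2KO minus Idh2R140Q (horizontal axis) for each process list with at least 8 members tested (number in brackets). Lists of cell type markers, sort genes, sex-linked genes and replication-dependent histones are not plotted. Medians are shown with all libraries (black), without Tet2KO replicate 2 (red) and in the female pools (green). Erythroid priming stays at -0.38 to -0.30 and the interferon response at 0.28 to 0.37, while the DNA damage list runs from -0.33 to -0.01.

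The largest differences lay outside the lists. Sva, a seminal vesicle protein gene at chromosome 6, 42038394 to 42042851 (mm10, plus strand), was at 0, 0, 0.135 and 0 TPM in Tet2KO. In Idh2R140Q it was at 6.54, 9.67, 6.21 and 12.9 TPM, and in WT at 8.95 ± 0.859 TPM (SD, n = 4). The rebuilt reads were 1 in Tet2KO and 286 in Idh2R140Q, a ratio per total reads of 259 with an exact 95% interval of 46.05 to 10250 for counting error. On the log2(TPM + 1) scale the difference was -3.20 (limma, adjusted p = 4.2e-08). The non-coding Gm37068 on chromosome 1 was at 0, 0.101, 0.137 and 0.126 TPM against 6.65, 7.32, 8.26 and 8.01 TPM, with 3 and 242 reads. The pseudogene Gm14044 on chromosome 2 was at 24.6, 33.3, 23.2 and 25.4 TPM in Tet2KO and 0.692, 0.782, 1.11 and 0.410 TPM in Idh2R140Q. This gene also split libraries within other groups, at 27.0, 28.8, 25.05 and 0.545 TPM in Idh1R132H and 28.0, 0.918, 26.05 and 16.1 TPM in Idh2R172K. Gm37068 and Gm14044 are unnamed gene models, chosen here after their values were seen.

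Rps6ka2, a kinase of the ERK pathway, was at 0.841, 0.347, 0.748 and 0.909 TPM in Tet2KO and 2.10, 3.55, 5.62 and 4.84 TPM in Idh2R140Q. It fell by 1.51 (SE 0.20, limma, adjusted p = 0.0014). Malat1, an abundant nuclear non-coding RNA on chromosome 19, was at 226, 318, 198 and 259 TPM against 125, 130, 77.6 and 127 TPM. It rose by 1.13 (SE 0.18, limma, adjusted p = 0.0050). Dlk1, an imprinted Notch-like ligand, was at 2.57, 2.86, 2.69 and 1.34 against 0.616, 0.680, 0.628 and 1.04 TPM, a steady call of 0.93. Among 21 imprinted genes tested Dlk1 was 1 of 3 called higher, and 3 were called lower, against 4.11% and 5.37% of all genes. Igf2r was the largest of the lower ones at -1.08. Without Tet2KO replicate 2 the list gave 3 higher and 1 lower, against 2.77% and 2.63% of all genes. Chdh, a choline dehydrogenase, and Mrs2, a mitochondrial magnesium channel, fell by 1.51 and 1.53, and the peptide transporter Slc15a2 rose by 1.20. All 3 kept separate groups, and Slc15a2 lost its call without Tet2KO replicate 2 (limma, adjusted p = 0.055).

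Nnt, a mitochondrial transhydrogenase with a known partial deletion in the C57BL/6J substrain, stood apart on the other side. It was at 36.9, 18.9, 38.6 and 34.4 TPM in Tet2KO, 68.4, 75.5, 57.7 and 59.99 TPM in Idh2R140Q and 50.4, 38.4, 39.4 and 44.7 TPM in WT. All Idh2R140Q libraries lay above all WT libraries, and Tet2KO overlapped WT. The difference between the mutants was -1.04 (SE 0.18, limma, adjusted p = 0.0085). Against WT neither passed, with 0.59 in Idh2R140Q and -0.46 in Tet2KO (limma, adjusted p = 0.998 and 0.12). Nnt and the substrain of each line were not tested further. Among other steady calls picked for their values, Gng11, Nradd and Krt18 were higher by 0.82, 0.98 and 0.64. Itgal, an integrin of white cells, Cdkn2c, a cell cycle inhibitor, Tbl1xr1, a corepressor subunit, Ermp1 and Fut11 were lower by -0.82, -0.74, -0.88, -1.29 and -1.19.

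Called genes differed in what they share beyond expression. Genes called higher had a median exon length of 1687 bases and genes called lower 5663 bases, beside 3644 for all. Genes of up to 1000 bases had a median difference of 0.28 and those over 8000 bases -0.29. Without Tet2KO replicate 2 these medians were 0.25 and -0.10, and in the female pools 0.30 and -0.02. Of the genes called higher 68.6% were protein coding, and of those called lower 97.8%, against 80.0% of all. Removing the length trend from each library left 2125 genes called, 6.58% of genes higher and 8.22% lower, with 11 erythroid genes lower and 1 higher, and 10 interferon genes higher. The part of length in the single calls was not tested otherwise.

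Promoter composition and position were described as well. The CpG ratio, observed over expected, had a median of 0.676 in promoters of genes called higher, 0.827 in those called lower and 0.767 over all 9641 windows. Among the steady calls it was 0.595 in 42 windows of higher genes and 0.707 in 26 of lower genes. Both lay below the median of all windows. By chromosome the share called ran from 7.23% on chromosome 7 to 11.0% on chromosome 12 among the autosomes, and it was 9.94% on the X chromosome. Within 5 Mb of the start of Tet2 on chromosome 3, 2 of 50 genes were called, Sec24b and Sgms2, both lower and both not called without Tet2KO replicate 2 (limma, adjusted p = 0.061 and 0.068). Within 5 Mb of the start of Idh2 on chromosome 7 it was 1 of 65, Hddc3. Hddc3 was at 20.1, 32.8, 56.2 and 61.2 TPM in Idh2R140Q and at 20.1 to 25.1 TPM in Tet2KO. Its Idh2R140Q libraries spread widely, and its call was lost without Tet2KO replicate 2 (limma, adjusted p = 0.099).

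**Figure D5:**
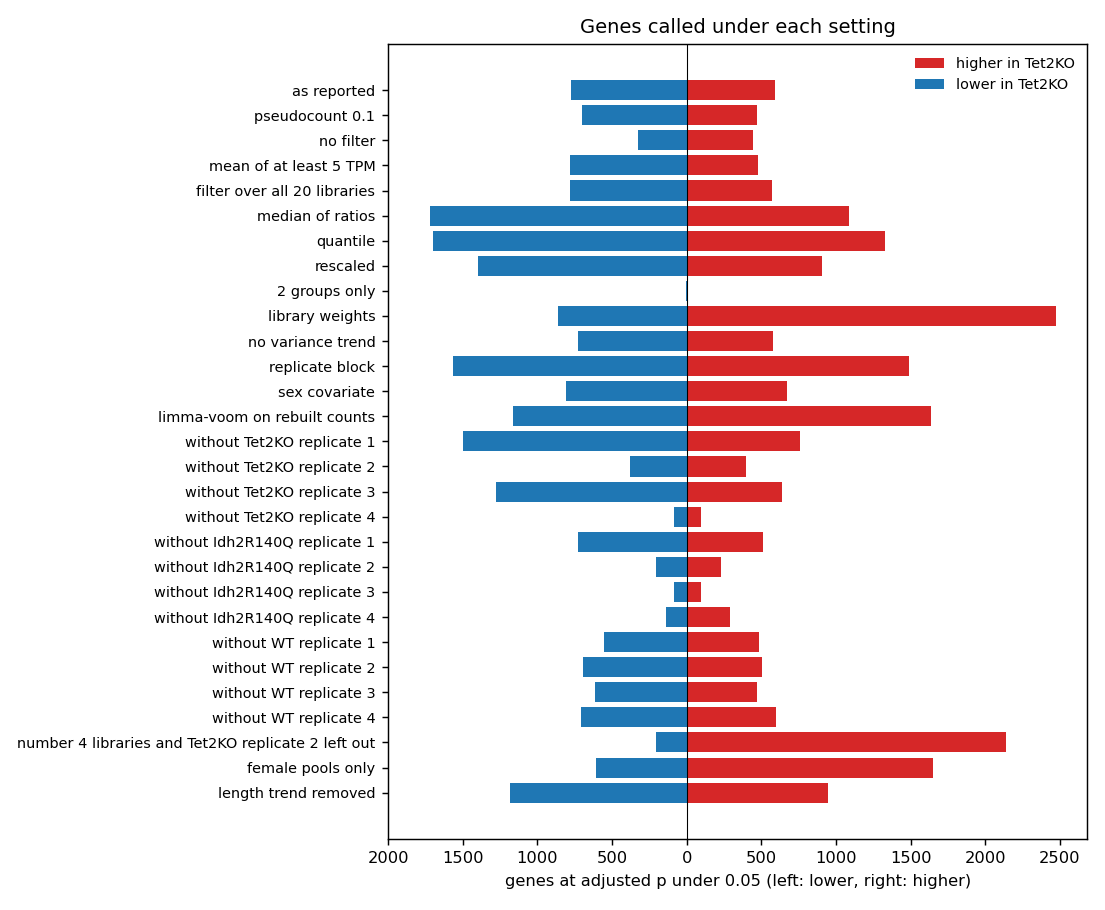
Number of genes called higher (red, right) and lower (blue, left) in Tet2KO than in Idh2R140Q under each setting. The fit of these 8 libraries alone calls 4 genes, and leaving out the number 4 libraries with Tet2KO replicate 2 gives 2141 higher and 206 lower.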

How the data were processed

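RNA-seq was made from total RNA of LSK cells. Per the submitters' processing notes reads were processed with Trim Galore, STAR on mm10 and featureCounts, with no versions; annotation release and strand setting are not given in the sources used here. The authors deposited TPM values, per the file headers, as 1 table with 46078 genes, named by Ensembl ID, for the 20 libraries. Columns were matched by mutation and pool number; those of Idh2R140Q carry a prefix naming Idh1 and were taken by the mutation 140Q.

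Symbols, positions and exon lengths came from GENCODE M21 (mm10, 45229 IDs matched). Read counts were rebuilt from TPM times exon length (90.0 to 91.0% of low values whole within 0.1 reads) for depth and 1 alternative. The 35.2 to 45.0 M reads limit values under about 1 TPM most. limma 3.58.1 in R 4.3.3 was fitted on log2(TPM + 1) over all 5 groups with a variance trend. Folds on this scale understate changes of low genes. P-values are 2-sided, adjusted by Benjamini-Hochberg over 14419 genes and measure the spread between pools. The fit was tested on simulated data. Lists carry counts and medians and no test. Promoters came from RefSeq (GRCm38.p6), taking the window nearest to the GENCODE start. Tables and figures used Python 3.11.15, pandas 2.3.3, numpy 2.4.6 and matplotlib 3.10.9.

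The members and lists were chosen with earlier results of these data known. Named genes are Idh1, Idh2, Tet2, the 15 largest called rises and falls with separate groups (sex-linked genes, receptor segments and unnamed models left out), up to 4 called members of each list, 11 set genes (Procr, Hlf, Flt3, Mpo, Gata1, Klf1, Itga2b, Dntt, Mki67, Kit and Ly6a) and called genes within 5 Mb of Tet2 or Idh2; not all are printed, and some are not reported here. 22 further genes (such as Cd52, Nnt, Isg15, Gng11 and further called erythroid members) were printed after their values were seen. Of 40 lists those with a result of interest are described, and the plot of list medians shows the process lists with at least 8 members tested. Lists of cell type markers, sort genes, sex-linked genes and replication-dependent histones are not plotted, and not all of them are described. Alternatives were a pseudocount of 0.1, other filters and scalings, library weights, sex, replicate block, limma-voom and left-out libraries. The female pools, the length trend and the WT libraries left out were added after seeing the data.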

Additional observations from a re-analysis of the deposited data

Results flagged for a closer look

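In each group of 4 libraries the highest or lowest value was compared with the range of the group. A library was marked as far from the other 3 where its gap to them, as a share of the range, was above Dixon's 95% critical value. Of 198 such groups of gene values 14 were marked, and chance marks about 1 in 20.

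Tet2KO replicate 2 was marked in 5 of the 14, and for its 20.02% of TPM in Gm23935. It was the highest of its group for Cd52 (569.4 TPM), Hmga2 (17.91 TPM), Hoxb5os (11.35 TPM) and Ly6a (350.2 TPM) and the lowest for Vwf (1.193 TPM). Without it Cd52, Hoxb5os and Ly6a were still called, while Hmga2 and Vwf were not (limma, adjusted p = 0.057 and 0.080). The other Tet2KO values were Mcpt8 in replicate 4 (172.4 TPM) and Sva in replicate 3 (0.135 TPM, 1 read).

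In Idh2R140Q, replicate 3 was the highest for Hdc (18.26 TPM) and Mpo (5392 TPM) and the lowest for Malat1 (77.57 TPM) and Kdm6b (2.719 TPM). Replicate 4 was the lowest for Hbb-bt (19.66 TPM) and the highest for Dlk1 (1.036 TPM). Replicate 1 was the highest for C1qc (23.84 TPM), and replicate 2 had the most rebuilt reads (45.04 M).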

How the results depend on the processing

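Besides the 1367 genes called, the count was 770 with no filter, 2811 with median-of-ratios scaling, 3026 with quantile scaling, 2306 after rescaling with mitochondrial and histone genes and the top 20 removed, 3336 with library weights, 2803 with limma-voom on rebuilt counts and 4 with the 2 groups alone. It was 2347 (2141 higher, 206 lower) with all number 4 pools and Tet2KO replicate 2 removed, 2256 in the female pools and 2125 with the length trend removed. The higher share of called genes was 43.4% as reported, 74.2% with library weights, 73.1% in the female pools, 58.4% with limma-voom and 57.5% with no filter. Against WT the 1085 calls of Tet2KO ran from 287 (without WT replicate 3) to 5331 (library weights). Leaving out 1 library gave 178 to 2255 genes. The extremes were Tet2KO replicate 4 (178), Idh2R140Q replicate 3 (181), Idh2R140Q replicate 4 (430), Idh2R140Q replicate 2 (436), Tet2KO replicate 2 (778), Tet2KO replicate 3 (1921) and Tet2KO replicate 1 (2255). The cause was not tested.

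With the replicate number as a block 3050 genes were called (1487 higher, 1563 lower). Same-numbered deviations of Tet2KO and Idh2R140Q correlated by -0.198, -0.0046, 0.031 and -0.017. No library of Tet2KO correlated best with its own number, so the numbers were not taken to pair these groups. That check left out the other groups. Number 4 had the highest level of long against short genes in WT, Idh1R132H, Idh2R140Q and Idh2R172K (0.294, 0.362, 0.32 and 0.315). It also gave the lowest share of TPM to Gm23935 there (8.03, 7.66, 7.55 and 8.13%). Tet2KO replicate 4 was at -0.365 and 10.9%. Whether the number marks a batch was not tested.

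Of the 139 named or printed genes called as reported, 0 changed direction in any setting. Uncalled genes did. Tet2 was at 0.42 in the female pools (adjusted p = 0.036), 0.305 with the length trend removed, 0.304 with library weights, 0.105 with limma-voom, 0.0356 with median-of-ratios and 0.0379 with quantile scaling, 0.0034 when rescaled, and 0.374 with all number 4 pools and Tet2KO replicate 2 removed. Leaving out 1 library gave -0.129 to 0.192 for Tet2, with 0.192 without Tet2KO replicate 2 and 0.116 without Idh2R140Q replicate 4. Flt3 was at 0.198, 0.184, 0.124, 0.107 and 0.0389 in the first 5 of these settings, 0.0026 when rescaled and 0.244 with those pools removed. Leaving out 1 library gave -0.151 to 0.141 for Flt3, with 0.038 without Tet2KO replicate 2 and 0.141 without Idh2R140Q replicate 4. Itga2b was at 0.285 in the female pools, 0.186 with library weights and 0.252 with those pools removed, and at -0.435 to 0.0752 with 1 library left out, positive without Tet2KO replicate 2. Kit was at 0.0532 in the female pools and 0.121 with those pools removed, where Hlf was at 0.0498. Idh2 was at -0.0049 with quantile scaling.

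Depth limits the genes of low level most: Sva and Gm37068 rest on 1 and 3 reads in Tet2KO.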

Other observations

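Xist, the RNA that silences 1 X chromosome in female cells, is a member of the sex-linked list, for which the report gives no result. In the female pools it was at 58.3 and 63.4 TPM in Tet2KO, 31.1 and 24.5 TPM in Idh2R140Q, and 26.8 and 21.7 TPM in WT. It was at 28.0 and 27.1 TPM in Idh1R132H and at 30.1 and 25.4 TPM in Idh2R172K. Both Tet2KO pools lay above the other 8 female pools. In the fit of the female pools the difference from Idh2R140Q was 1.11 (limma, adjusted p = 0.0061), with 2 pools in each group. That fit called 11.4% of all genes higher.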
